A study of Mus musculus with 7 samples.

Results

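The nuclear-encoded subunits of the mitochondrial respiratory chain and of ATP synthase were compared between nm3888-/- and wild-type Purkinje cells. Members were taken by name: genes whose symbol starts with Nduf, Uqcr, Cox4, Cox5, Cox6, Cox7, Cox8 or Atp5, together with Sdha, Sdhb, Sdhc and Sdhd, with at least 10 counts in each of at least 3 libraries. Names with -ps were left out. This gave 94 members of the 55401 genes counted, of which 90 were annotated as protein coding and 4 (Cox6c2, Ndufa11b, Ndufb4c and Ndufs6b) as processed pseudogenes. Cox7b2, Cox8b, Cox8c and an Atp5o identifier other than the expressed one did not reach the limit.

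Ribosomes were isolated by RiboTag, in which Cre recombinase under the Purkinje cell promoter PCP2 switches on hemagglutinin-tagged RPL22 and the tagged ribosomes are immunoprecipitated with their RNA. The 4 mutant libraries came from mice of genotype Rpl22fl/+;PCP2-Cre;nm3888-/- and the 3 wild-type libraries from Rpl22fl/+;PCP2-Cre mice, with 1 cerebellum per library, at 3 weeks of age. Both groups therefore carried the same tag and Cre. The nm3888 mutation is a spontaneous insertion of an endogenous retrovirus in an intron of Rreb1, which removes the main cerebellar transcript variant of Rreb1, and which arose on another strain background and was backcrossed to C57BL/6J. The library names form 2 series. The first series holds mutants 1 and 2 and wild types 1 and 2, all female, and the second series holds mutants 3 and 4, both male, and wild type 3, a female, so that within the second series sex and genotype cannot be told apart.

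Complexes I to IV pass electrons from NADH and succinate to oxygen. Complexes I, III and IV pump protons across the inner mitochondrial membrane, and ATP synthase uses the proton gradient to make ATP. Most subunits are encoded in the nucleus, and the mitochondrial genome encodes the rest. Purkinje cells fire spontaneously at high rates and are rich in mitochondria. Several subunits have tissue-specific paralogs, such as COX6A2 of heart and skeletal muscle and COX4I2, which is best known from lung and from vascular mural cells.

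Total counts ranged from 18023017 to 107937386 per library. The defining Purkinje markers Pcp2, Calb1 and Car8 were abundant in every library, with Calb1 between 5861 and 9162 CPM in mutants and between 6279 and 7700 CPM in wild types (CPM are counts scaled to a common library size with TMM factors). The summed level of 15 Purkinje markers was 37655 to 54713 CPM in mutants and 40941 to 49431 CPM in wild types, and none of them passed the test. Rreb1 itself was at 20.2, 19.1, 23.7 and 10.8 CPM in mutants 1 to 4 and at 17.7, 17.4 and 14.4 CPM in wild types 1 to 3, with a log2 fold change of 0.20 ± 0.233 (edgeR adjusted p 0.64). The count of the mutated gene was thus not lower in the libraries labelled mutant, although the loss of a main transcript would lower it. The paper reports that a Northern blot for total Rreb1 lost the main transcript in mutants. It also reports no Rreb1 signal in mutant brain by in situ hybridization with a probe for all Rreb1 transcripts. The count here differs from both. The paper further reports other Rreb1 variants at comparable levels in mutant cerebellum, and a transcript that joins Rreb1 to the insertion. A count per gene does not part these variants. As it stands the count goes against the labels, and the reason was not tested. Mutant and wild type below therefore mean the libraries labelled so, and every direction between them rests on those labels. RNA of other cells was present: the 11 granule cell markers summed to 632 to 1209 CPM in mutants and 465 to 572 CPM in wild types, and the 10 Bergmann glial and astrocytic markers to 9707 to 14179 CPM in mutants and 8154 to 13321 CPM in wild types. Most of the glial sums was Aldoc (zebrin II), which Purkinje cells also express, and the other 9 markers summed to 400.3 to 619 CPM in mutants and 442 to 519 CPM in wild types. Over all libraries Gfap, of astrocytes, and Cnp, of oligodendrocytes, were higher in mutants and Hopx, of astrocytes, was lower. None of the granule cell, microglial, endothelial or interneuron markers passed this test over all libraries. The median log2 fold changes of mutant over wild type were 0.51 for granule cell, 0.60 for Bergmann glial and astrocytic, 0.53 for oligodendrocyte and 0.68 for microglial markers. In the second series alone the granule cell markers lay between 0.28 (Fat2) and 1.40 (Zic2). Their values in the first series lay between -0.03 (Etv1) and 0.54 (Fat2). The granule cell sum was 1209 and 639 CPM in mutants 3 and 4 against 514 CPM in wild type 3. Interneuron markers of the second series lay between -0.73 (Prkcd) and 0.67 (Ptprk). The part of these cells in the results below was not tested, and in bulk RNA fewer cells of a type and less RNA per cell cannot be told apart.

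Few genes of the nuclear-encoded respiratory chain differed between the genotypes. In edgeR's quasi-likelihood test with the library series as a term, over 17621 genes, 2 of the 94 members were higher in mutants (2.58% of all genes tested were higher) and 1 was lower (5.95% of all genes were lower). Cox6a2 and Uqcrb rose and Cox4i2 fell in the libraries labelled mutant. Cox6a2 was a member only through its counts in mutants, so its place among the higher members is a description only. Over the 90 protein-coding members the median log2 fold change of mutant over wild type was -0.12, where the median over all genes tested was 0.03. Of these members 69 had a negative and 21 a positive value, where 46.6% of all genes tested had a negative value. An unadjusted p under 0.05 was seen for 11 of them. The share of all genes with such a p was not counted, here or for the counts of this kind below. The negative median rested on wild type 3, without which it was -0.01, and it was -0.04 without mutant 3. The 95% interval of the fold change lay within 2-fold in either direction for 87 of the 90 and within 1.5-fold for 74 of the 90, so that changes of more than 2-fold were outside the interval for most of the respiratory chain.

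**Figure D1:**
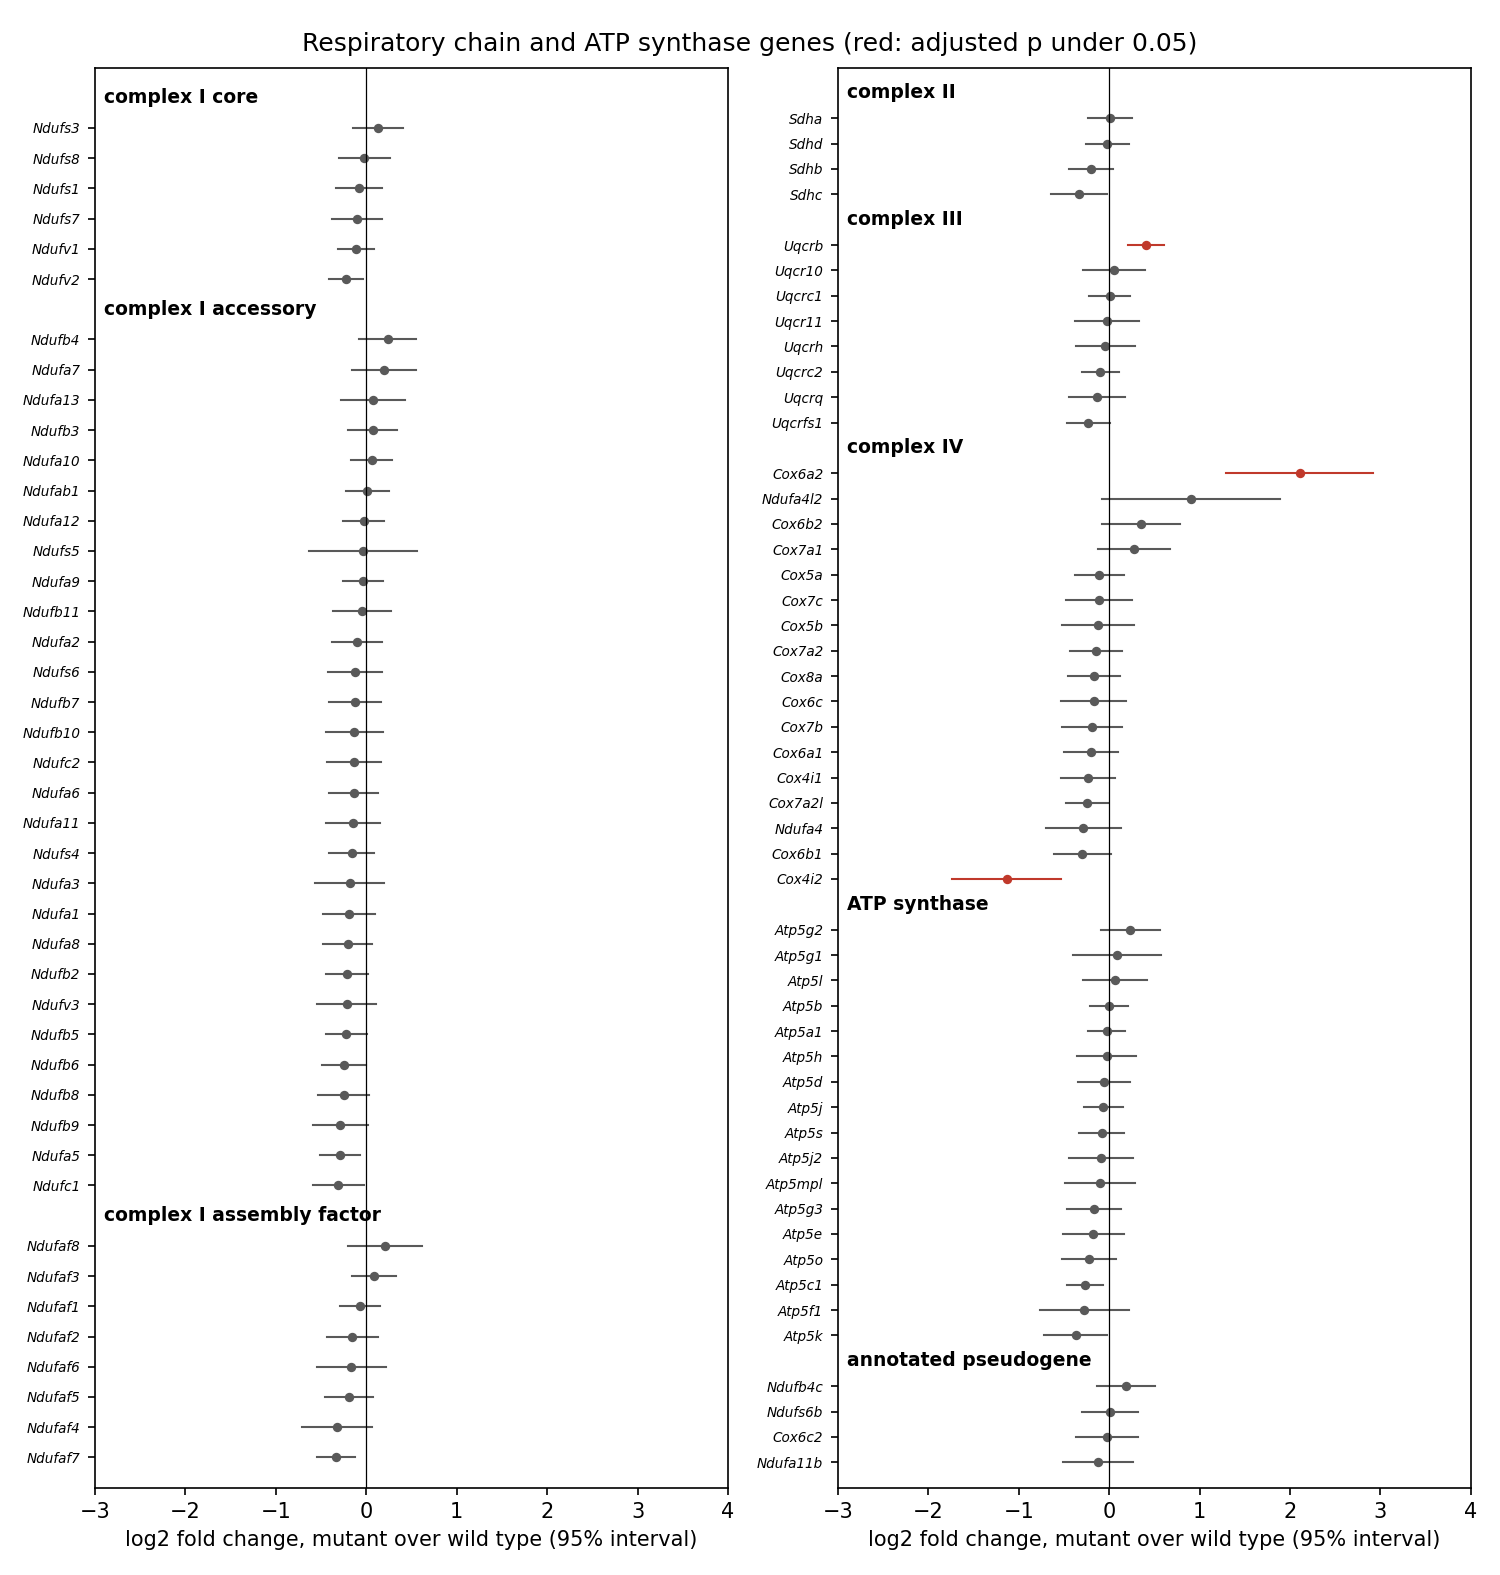
Log2 fold change of mutant over wild type (x axis) for 93 members, grouped by complex and ordered by value, with the 95% interval as a line. Cox6a2 and Uqcrb (higher) and Cox4i2 (lower) are in red, and the other 90 members drawn did not pass the test.

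Cox6a2 encodes the muscle-type isoform of the subunit VIa of cytochrome c oxidase and lies at chr7:128205435-128206387 of mm10. It had 0.629, 0.566, 0.556 and 0.509 CPM in mutants 1 to 4, against 0.079, 0.0791 and 0.166 CPM in wild types 1 to 3. The lowest mutant lay above the highest wild type, and the groups did not overlap. These levels rest on 12, 19, 33 and 23 counts in mutants and on 2, 2 and 17 counts in wild types. The limit of 10 counts in 3 libraries was met through the mutants, with 1 wild-type library reaching it, so that Cox6a2 was a member only because it was high in mutants. The log2 fold change was 2.11 ± 0.355 (SE) with an adjusted p of 0.00804 by edgeR. Pooled counts of the first series gave a ratio of 7.45 (95% exact interval 2.63 to 29, counting error only), and in the second series a ratio of 3.23 (1.85 to 5.93). The call held without any 1 library and in the first series alone (log2 fold change 2.83, edgeR adjusted p 0.0414), but not in the second series alone (1.68). Since membership of Cox6a2 rests on the mutants, its test, its lack of overlap and these repeats are a description only.

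Its paralog Cox6a1, the ubiquitous isoform, was far more abundant. It had 236, 206, 284 and 378 CPM in mutants and 226, 234 and 440 CPM in wild types. The log2 fold change was -0.20 ± 0.129 (edgeR adjusted p 0.395), and the values of the genotypes overlapped within the first series. Per kilobase of exon, Cox6a1 was at 405 and 539 CPM per kb in mutants 3 and 4 and at 627 CPM per kb in wild type 3, where Cox6a2 was at 0.818, 0.748 and 0.244 CPM per kb in the same libraries. Even in mutants the Cox6a2 level was thus a small part of the pair.

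Cox4i2 encodes the alternative isoform of subunit IV of the same enzyme, which is induced by low oxygen in other tissues, and lies at chr2:152754173-152765037. It had 2.41, 1.19, 2.31 and 2.21 CPM in mutants 1 to 4, against 4.47, 2.77 and 5.29 CPM in wild types 1 to 3. All mutants were below all wild types, and mutant 1 and wild type 2 were closest. The log2 fold change was -1.13 ± 0.265 (edgeR adjusted p 0.0338). The values were -1.06 in the first series (adjusted p 0.226) and -1.22 in the second (adjusted p 0.0267). The call was lost without any 1 of mutants 2, 3 or 4 or wild types 1 or 3, with log2 fold changes between -1.13 and -0.94 and adjusted p between 0.0714 and 0.223, and it also ended on library totals without TMM (adjusted p 0.0611).

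Because Cox4i2 is known from pericytes, a list of 9 pericyte markers was read beside it, chosen after the values were seen. The list summed to 49.8, 44.7, 40.8 and 59.4 CPM in mutants 1 to 4 and to 37.2, 29.7 and 24.4 CPM in wild types 1 to 3. Of its 8 tested members Abcc9 was higher in mutants (log2 fold change 1.47 ± 0.356, edgeR adjusted p 0.0383) and the other 7 did not pass the test. The median log2 fold change of the list was 0.62. The medians of the granule cell, astrocytic, oligodendrocyte and microglial lists were 0.51, 0.60, 0.53 and 0.68, and those of the interneuron and endothelial lists 0.46 and 0.15. The part of pericytes in the value of Cox4i2 was not tested. Cox4i1, the ubiquitous paralog, had 239, 218, 403 and 556 CPM in mutants and 238, 257 and 638 CPM in wild types, with a log2 fold change of -0.24 ± 0.13 that did not pass the test (edgeR adjusted p 0.316).

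**Figure D2:**
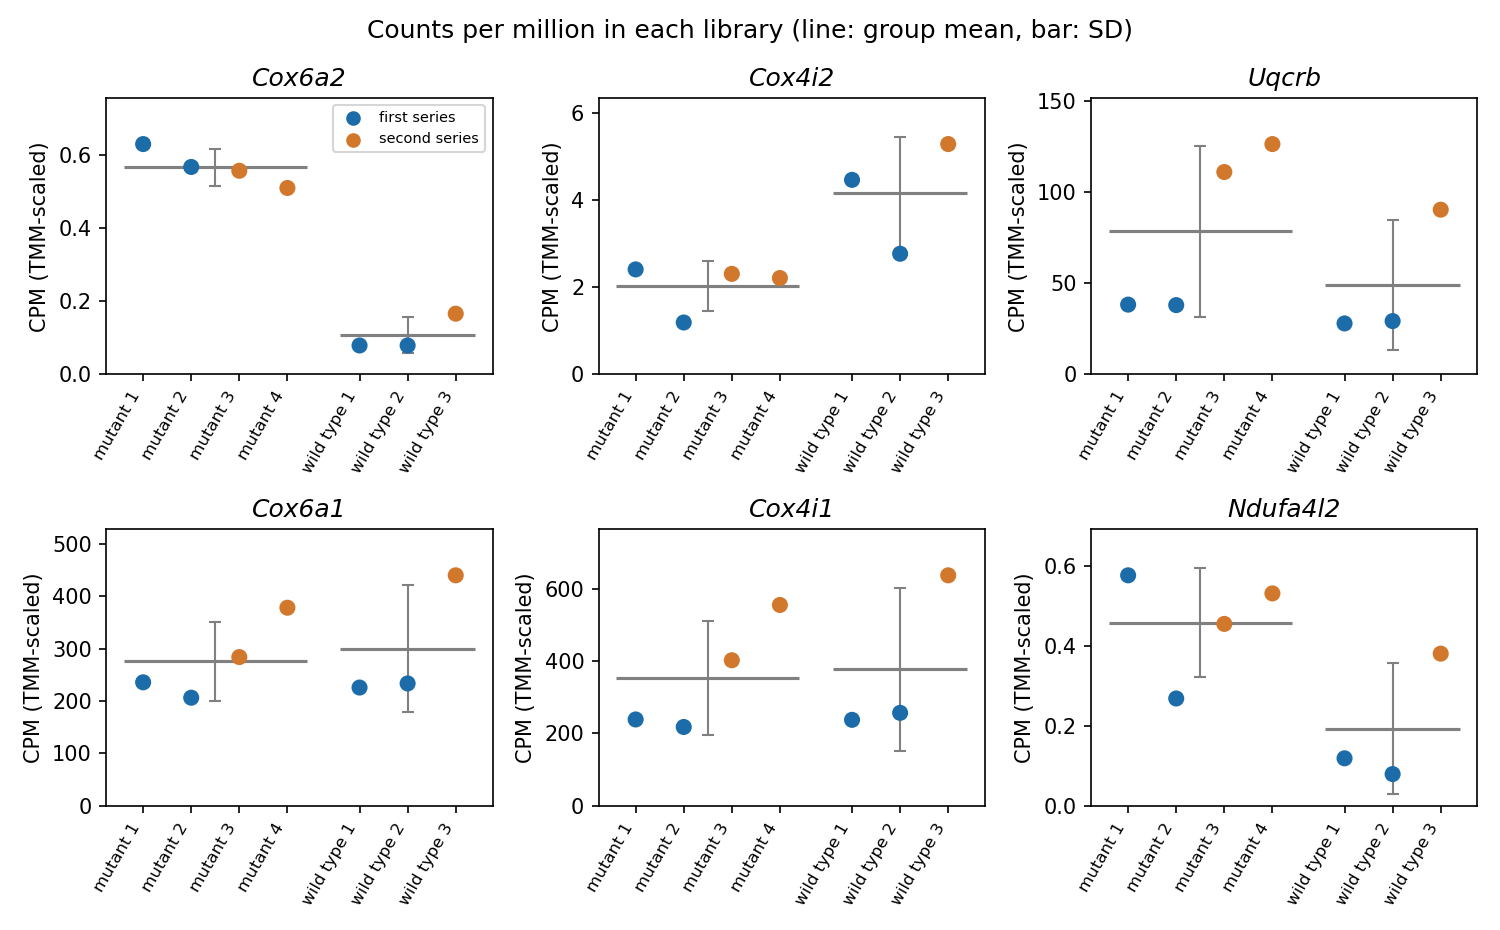
CPM (y axis, TMM-scaled) in each library for Cox6a2, Cox4i2, Uqcrb and the paralogs Cox6a1, Cox4i1 and Ndufa4l2, with blue points for the first and orange points for the second library series. The grey line is the group mean and the bar the SD. Mutants do not overlap wild types for Cox6a2 and Cox4i2, and for Uqcrb they are above the wild types within each series.

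Uqcrb encodes a small subunit of complex III that lies on the matrix side of the enzyme, and is at chr13:66900617-66905378, 28.9 Mb from Rreb1 on the same chromosome. The first series had 38.4 and 38.1 CPM in mutants 1 and 2, against 28.0 and 29.3 CPM in wild types 1 and 2. The second series had 111 and 127 CPM in mutants 3 and 4, against 90.5 CPM in wild type 3. Within each series both mutants were above every wild type. The share of members or of all genes with this order was not counted. The log2 fold change was 0.41 ± 0.0889 (edgeR adjusted p 0.0253), and the values of 0.42 and 0.40 in the series alone were close to each other (adjusted p 0.117 and 0.376). When replicate numbers were blocked, replacing the series term, the log2 fold change was 0.37 and the adjusted p 0.132, and the call was also lost without any 1 of mutants 2 or 4 or wild types 1, 2 or 3 (adjusted p 0.06 to 0.139). The other 6 members on chromosome 13 (Uqcrfs1, Ndufs6, Sdha, Cox7c, Ndufaf2 and Ndufs4) did not pass the test.

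The subunits of complex I, which oxidizes NADH, were the largest group. Of 7 core subunits, which carry the cofactors for electron transfer, none passed the test, and the median log2 fold change was -0.08. Their extremes were Ndufs3 at 0.13 ± 0.12 and Ndufv2 at -0.22 ± 0.0842 (edgeR adjusted p 0.148). Ndufv2, a subunit with an iron-sulfur cluster, had 60.4 and 63.2 CPM in mutants 1 and 2 against 71.3 and 71.6 CPM in wild types 1 and 2, and 151 and 166 CPM in mutants 3 and 4 against 188 CPM in wild type 3. Both mutants were below the wild types in each series, by amounts that did not pass the test. Such an order held for 73.3% of the protein-coding members in the second series (34.7% of all genes tested). It held for 16.7% of them in the first series (24.2% of all genes). The share with it in both series was not counted, here or for the members below.

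None of the 29 accessory subunits of complex I passed the test, and their median was -0.13. A negative value was seen for 23 of them, where 46.6% of all genes tested had one. Ndufb4 had the largest value at 0.23 ± 0.137, and Ndufc1 the lowest at -0.31 ± 0.123 (edgeR adjusted p 0.342 and 0.17). Ndufc1 had 9.01, 8.88, 40.5 and 46.9 CPM in mutants and 12.0, 9.18 and 57.2 CPM in wild types. Ndufa1, which had the highest level per kilobase of the group, was at 76.9, 65.8, 74 and 101 CPM in mutants and 74.8, 78.2 and 109 CPM in wild types, and these ranges overlapped.

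Of 8 assembly factors of complex I, which help build the enzyme without staying in it, Ndufaf7 was the one closest to the threshold. It encodes a mitochondrial arginine methyltransferase. It had 20.2, 21.0, 29.7 and 31.2 CPM in mutants and 26.7, 24.6 and 39.3 CPM in wild types, and both mutants were below the wild types in each series. The log2 fold change was -0.34 ± 0.091, with an adjusted p of 0.0571 by edgeR and of 0.0467 by DESeq2. Ndufaf8 had the largest value of the group at 0.21 ± 0.18, and Ndufaf1 the highest level per kilobase, at a log2 fold change of -0.06.

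Complex II, succinate dehydrogenase, is the one complex with no subunit from the mitochondrial genome. None of its 4 genes passed the test. Sdhc, a membrane anchor, had the lowest value at -0.33 ± 0.136 (edgeR adjusted p 0.18), with 224, 175, 159 and 198 CPM in mutants and 212, 241 and 261 CPM in wild types. Sdha, the flavoprotein that oxidizes succinate, was at 0.01 ± 0.106, and Sdhd was at -0.02 ± 0.104. The range of Sdhc in mutants overlapped that of wild types.

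In complex III, the cytochrome bc1 complex, 1 of 8 members (Uqcrb) passed the test and the median was -0.04. Uqcrfs1, the Rieske iron-sulfur protein, lies 7.2 Mb from Rreb1 and had the lowest value of the group at -0.23 ± 0.103 (edgeR adjusted p 0.224). It had 307, 306, 207 and 253 CPM in mutants and 324, 356 and 292 CPM in wild types, and both mutants were below the wild types in each series.

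In complex IV, cytochrome c oxidase, Cox6a2 and Cox4i2 passed the test and the other 15 of 17 members did not. The median was -0.17. Among the remaining paralogs, the sperm-type Cox6b2 was at 0.35 ± 0.19 and the muscle-type Cox7a1 at 0.28 ± 0.175, while their ubiquitous partners Cox6b1 and Cox7a2 were at -0.30 ± 0.139 and -0.15 ± 0.124. Cox7a2l, which takes part in joining complexes III and IV, was at -0.25 ± 0.101, Cox7b at -0.19 ± 0.146 and Cox8a at -0.17 ± 0.126. Ndufa4, which was first assigned to complex I and is a subunit of complex IV, was at -0.29 ± 0.182, and its paralog Ndufa4l2 at 0.90 ± 0.431. None of these passed the test, with edgeR adjusted p between 0.182 and 0.526. Ndufa4l2 rests on 11, 9, 27 and 24 counts in mutants and 3, 2 and 39 counts in wild types. The limit of 10 counts in 3 libraries was met through the mutants, with 1 wild-type library reaching it. The ratio of pooled counts of Ndufa4l2 was 3.84 in the first series (95% exact interval 1.40 to 13.1, counting error only) and 1.28 in the second (0.83 to 2.0). Since its membership rests on the mutants, these ratios are a description only.

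None of the 17 ATP synthase genes passed the test, and the median was -0.08. Atp5a1 and Atp5b, which encode the alpha and beta subunits of the catalytic head, were among the most abundant members. Atp5a1 had 1206, 1379, 2022 and 1969 CPM in mutants and 1260, 1338 and 2075 CPM in wild types, with a log2 fold change of -0.03 ± 0.0898. Atp5k, a small subunit of the membrane part, had the lowest value at -0.37 ± 0.151 (edgeR adjusted p 0.177), and was at -0.10 ± 0.143 with the reads of its pseudogene copies added (adjusted p 0.71). The genes Atp5g1, Atp5g2 and Atp5g3 encode the same mature c subunit of the proton-driven ring, and stood at 0.09 ± 0.214, 0.23 ± 0.143 and -0.17 ± 0.133.

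Levels were compared between genes per kilobase in the second series. The 90 protein-coding members had a median of 78.0 CPM per kb, with 37 above 100 CPM per kb and 9 below 10 CPM per kb. The order began with Atp5a1 at 645 CPM per kb, Atp5b at 585, Cox6a1 at 523, Cox8a at 457 and Cox4i1 at 343, as means of 3 libraries. Atp5a1 was at 645 and 628 CPM per kb in mutants 3 and 4 and 662 CPM per kb in wild type 3, and Atp5b at 534 and 618 CPM per kb in mutants 3 and 4 and 604 CPM per kb in wild type 3. The gap between their means was smaller than the range of Atp5b over the libraries. At the low end were Ndufa4l2 at 0.416 CPM per kb, Cox6a2 at 0.603 and Cox4i2 at 4.15, so that both Cox6a2 and Cox4i2 were among the least abundant members.

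Many of these genes have processed pseudogenes, which are intronless copies made by reverse transcription of the spliced mRNA. A search of annotated pseudogenes against the coding transcripts matched 128 copies to 49 of the 90 members, at 85% or more identity over 50% or more of the copy. The letters below show how few bases part a member from its copy. Each is a 60-base stretch of coding sequence that spans an exon junction of the member after its first 30 bases, with the same stretch of the copy below it, from the GENCODE transcripts on GRCm38. Capitals mark bases at which member and copy differ.

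Ndufs5, chr4:123712897-123715893, minus strand, exons 1 and 2: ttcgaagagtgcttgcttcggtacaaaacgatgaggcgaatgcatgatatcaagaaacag
BC002163, chr16:42955817-42955876, plus strand: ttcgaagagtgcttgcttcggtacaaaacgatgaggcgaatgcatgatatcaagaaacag
Uqcrb, chr13:66901539-66902759, minus strand, exons 2 and 3: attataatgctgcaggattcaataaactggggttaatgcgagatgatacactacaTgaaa
Gm2962, chr1:170925524-170925583, minus strand: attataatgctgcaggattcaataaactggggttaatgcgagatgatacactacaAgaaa
Atp5k, chr5:108434051-108434355, minus strand, exons 1 and 2: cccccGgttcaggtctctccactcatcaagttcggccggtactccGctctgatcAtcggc
Atp5k-ps2, chr2:173984626-173984685, minus strand: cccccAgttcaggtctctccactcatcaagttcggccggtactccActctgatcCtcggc

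The windows of Ndufs5 and its copy have 0 differences, those of Uqcrb and Gm2962 have 1 and those of Atp5k and its copy have 3. The member's window is split by an intron in the genome and the copy's window is not.

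The share of reads counted in the copies differed between the library series. In the first series the median share over the 49 members was 73.9 and 73.6% in mutants 1 and 2 and 72.4 and 76.1% in wild types 1 and 2. The second series had medians of 0.172 and 0.195% in mutants 3 and 4 and 0.0761% in wild type 3. The first series was thus dominated by copy reads for most of these genes in both genotypes. Per the file headers the alignments of the first series were in a folder named for Bowtie2, which does not split reads across introns, and those of the second in a folder named for STAR, which does. The part of the aligner in this difference was not tested, and series and aligner folder cannot be told apart.

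**Figure D3:**
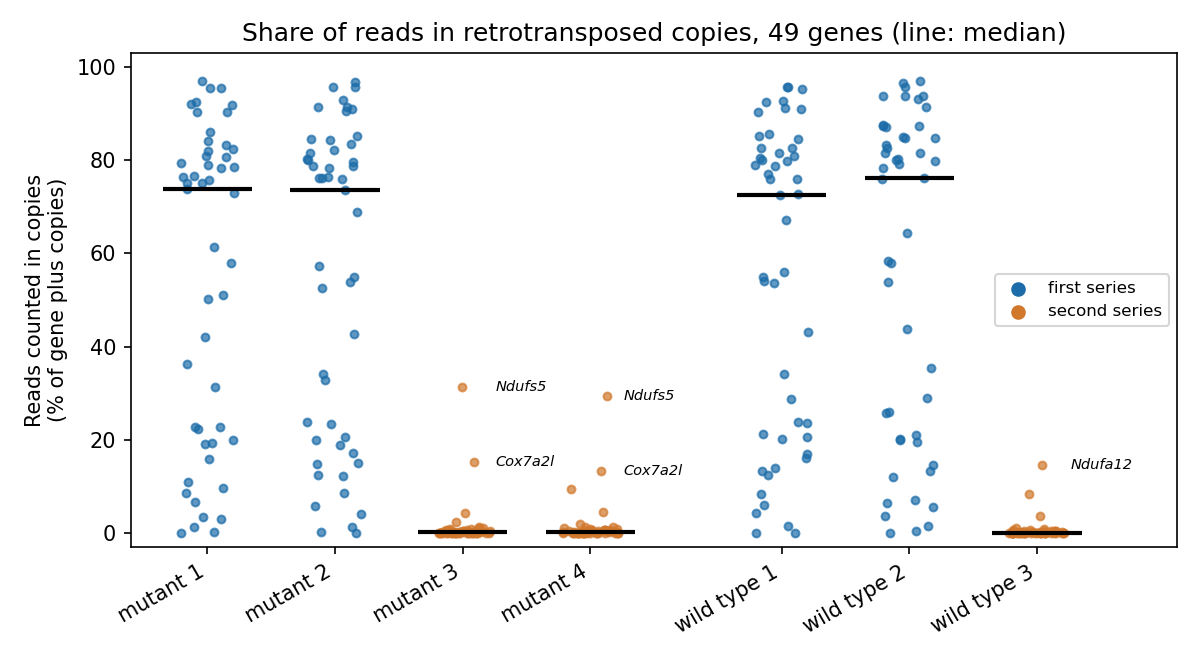
Share of reads counted in retrotransposed copies (y axis, percent of the gene plus its copies) for each of 49 members in each library, with the median as a black line. Shares run up to 97.1% in the 4 libraries of the first series (blue), while in the second series (orange) medians are under 0.2% and 4 members reach 5% or more in some library: Ndufs5, Cox7a2l and Ndufa12 (named in the plot) and Atp5g1, at 0.987 and 9.54% in mutants 3 and 4 and 8.51% in wild type 3.

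Levels followed the same split. The series term of the fit (second over first series) was called for 77 of 90 protein-coding members, where 45.7% of all genes tested were called in either direction, with 75 higher and 2 lower in the second series. Its median was 1.57 over the 49 members with copies and 0.74 over the 41 without. When the reads of the copies were added to each gene, the medians were -0.30 and 0.74, and 69 of the 90 members were still called, 44 higher and 25 lower, where 45.5% of all genes were called. Atp5k had the largest series difference among the protein-coding members. It had 2.67 and 2.24 CPM in mutants 1 and 2 and 3.20 and 3.76 CPM in wild types 1 and 2, where the second series had 63.5 and 85.3 CPM in mutants 3 and 4 and 87.8 CPM in wild type 3. With its copies it was at 92.2, 69.8, 63.8 and 85.7 CPM in mutants 1 to 4 and at 76.0, 87.1 and 87.8 CPM in wild types 1 to 3, and the series no longer stood apart. Cox5b, a subunit of complex IV for which no copy was matched, still differed between the series by 3.41 on the log2 scale.

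The 4 members annotated as pseudogenes had the opposite pattern. Cox6c2, a copy of Cox6c, was at 204 and 196 CPM in mutants 1 and 2 and 212 and 225 CPM in wild types 1 and 2, but at 0.91 and 1.50 CPM in mutants 3 and 4 and 1.02 CPM in wild type 3. Ndufb4c and Ndufa11b had the largest and the lowest log2 fold change of the 4, at 0.19 ± 0.14 and -0.13 ± 0.171. None of the 4 passed the test for genotype, and all 4 were lower in the second series.

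The genotype comparison was therefore repeated within each series and with the copies added. In the first series alone 1 member was called (Cox6a2), where 3.98% of all genes were called, and the median over the protein-coding members was -0.01. In the second series alone 2 members were called (Cox4i2 and Ndufs5, both lower), where 6.11% of all genes were called, and the median was -0.26, with 81 of 90 values negative. Over all genes tested in that series 46.9% of the values were negative. The lone wild-type library of that series is assumed to vary like the mutants. In CPM, both mutants of the second series were below the wild type for 66 of the 90 members (73.3%), where this held for 34.7% of all genes tested. Both first-series mutants were below both wild types for 15 of the 90 (16.7%), where this held for 24.2% of all genes tested. The summed level of the protein-coding members was 16068 and 18914 CPM in mutants 3 and 4 against 20176 CPM in wild type 3, and 9399 and 9205 CPM in mutants 1 and 2 against 9217 and 9608 CPM in wild types 1 and 2. The lower values were thus seen against a single wild-type library, and the first series did not show them.

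The test of the difference between the series (genotype by series) called 0 members by edgeR, where 0.0795% of all genes were called. Of the protein-coding members 2 had an unadjusted p under 0.05, DESeq2 called 0 members, and edgeR without the filter on low counts called 1, Ndufs5.

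**Figure D4:**
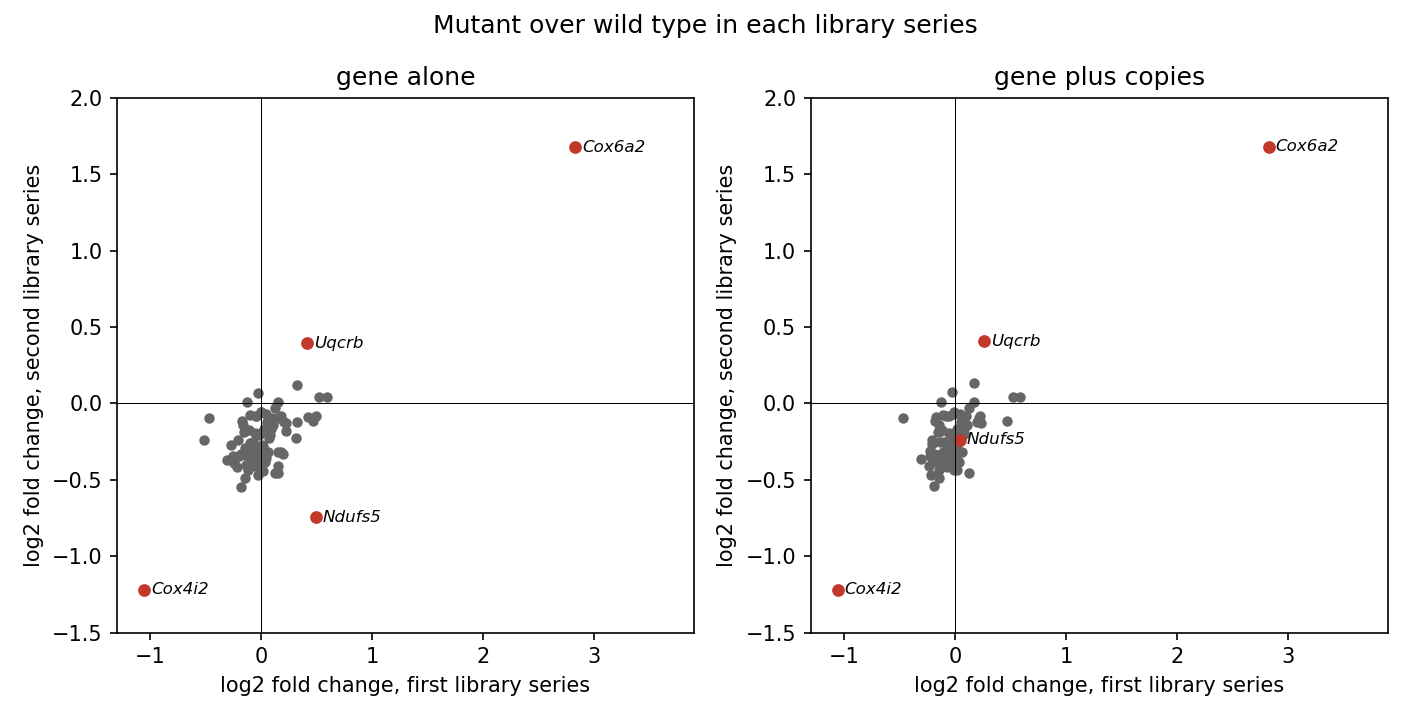
Log2 fold change of mutant over wild type in the first (x axis) and second (y axis) library series for the protein-coding members tested in both, for the gene alone (left) and for the gene with its copies added (right). Cox6a2, Cox4i2 and Uqcrb keep their sign in both series, and Ndufs5 moves toward the other members when its copies are added.

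Ndufs5, an accessory subunit of complex I, was named after its values were seen, as were Ndufa12, Cox5b, Atp5b, Sdhb and Uqcr11. The second series had 63.0 and 85.5 CPM in mutants 3 and 4 against 125 CPM in wild type 3, and the log2 fold change was -0.75 ± 0.221 (edgeR adjusted p 0.0452). The first series had 57.3 and 45 CPM in mutants 1 and 2 against 43.0 and 29.4 CPM in wild types 1 and 2. Its copy BC002163, whose window is shown above, held 1704 and 1615 counts in mutants 3 and 4 and 131 counts in wild type 3, or 31.3 and 29.5% of the reads of the pair in mutants and 1.01% in the wild type. With the copy added the log2 fold change in the second series was -0.24 ± 0.223 (adjusted p 0.666), and the call was lost.

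Cox7a2l and Ndufa12 also had a copy with unequal shares between the genotypes in the second series. The copy Gm6969 of Cox7a2l held 15.3 and 13.4% of the reads in mutants 3 and 4 and 0.298% in wild type 3. Ndufa12 went the other way, with 0.41 and 0.707% in mutants 3 and 4 and 14.7% in wild type 3 counted in its copy Gm15920. Neither gene passed the test alone or with its copies, and Ndufa12 was at -0.03 alone and -0.14 with its copy over all libraries.

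**Figure D5:**
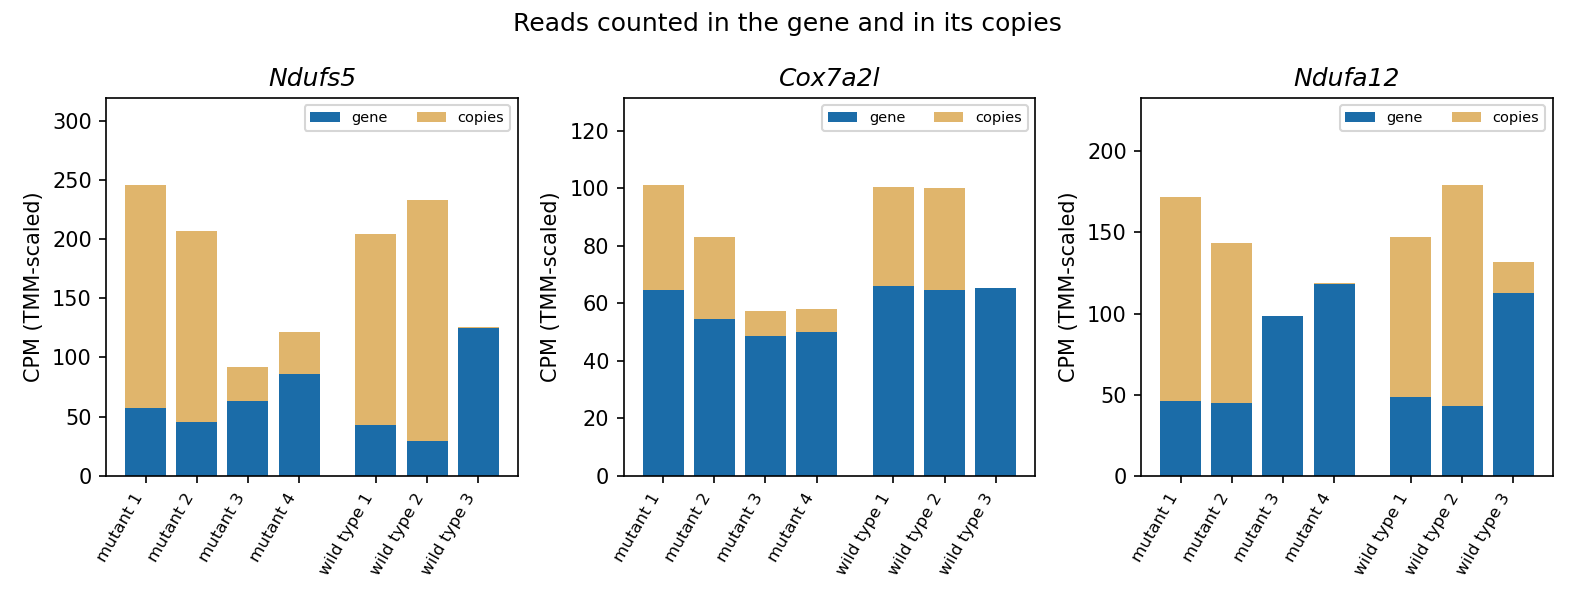
CPM (y axis, TMM-scaled) of Ndufs5, Cox7a2l and Ndufa12 in each library, counted in the gene (blue) and in its matched copies (sand). In the second series the copies of Ndufs5 and Cox7a2l hold reads in mutants 3 and 4 but hardly any in wild type 3, and for Ndufa12 the order is turned.

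With the copies added in all libraries, Cox6a2 and Cox4i2 were called, 2 of 90 protein-coding members, where 8.7% of all genes were called in either direction. Uqcrb was at 0.32 ± 0.0964 with an adjusted p of 0.081. In the second series with the copies added 1 member was called (Cox4i2), where 6.25% of all genes were called. Cox6a2 and Cox4i2 had no matched copy, and Uqcrb had 4, which held 78.3 and 78.8% of the reads in mutants 1 and 2 and 79.9 and 81.5% in wild types 1 and 2.

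Other genes of the pathway were read from fixed lists. None of the 13 protein-coding genes of the mitochondrial genome passed the test, and their median log2 fold change was -0.44. They rest on the first series alone, since no mitochondrial reads were counted in the second series. Their summed level was 600 and 870 CPM in mutants 1 and 2 and 1158 and 814 CPM in wild types 1 and 2. Whether these mitochondrial reads were bound to the tagged ribosomes was not tested. Of 38 tested assembly factors outside the rule, 77 mitochondrial ribosomal proteins, 7 electron carriers and 6 nucleotide and phosphate carriers, 0 passed the test (8, 2, 1 and 0 had an unadjusted p under 0.05), and their medians were -0.01, -0.01, 0.21 and -0.05. In the citric acid cycle 1 of 18 genes fell, a share near the 5.95% of all genes that were lower. It was Idh3a, the catalytic subunit of the NAD-dependent isocitrate dehydrogenase, with 170, 183, 208 and 216 CPM in mutants and 221, 229 and 289 CPM in wild types (log2 fold change -0.39 ± 0.0836, edgeR adjusted p 0.0233). Its groups did not overlap.

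None of 14 regulators of mitochondrial biogenesis passed the test, with 5 at an unadjusted p under 0.05. Ppargc1a, the coactivator PGC-1alpha, was at 33.5, 46.3, 44.9 and 37.6 CPM in mutants and 62.5, 65.9 and 49.0 CPM in wild types, with a log2 fold change of -0.51 ± 0.149 (edgeR adjusted p 0.0733). Nrf1, Gabpa and Yy1 encode DNA-binding factors known to act on respiratory chain promoters, and were at 0.08 ± 0.112, 0.34 ± 0.101 and 0.03 ± 0.0934, and none of the 3 passed the test.

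Promoters of some members share letters that the naming rule did not use, each set of letters in a minority of the promoters matched. RefSeq entries (GRCm38.p6, 250 bases before to 50 after the start site) were matched for 74 of the 90 protein-coding members, 2 of them through an older symbol. The letters GCATGCGC (core of the NRF1 motif) on either strand were in 12 of the 74 promoters (16.2%), against 3.05% of the promoters of all genes. The letters CCGGAAG (core of the ETS motif that GABPA binds) were in 18 (24.3%) against 9.93%, and AAGATGGC (core of the YY1 motif) in 11 (14.9%) against 3.19%. CCGGAAG and AAGATGGC can share the letters AAG where one follows the other. Most AAGATGGC matches began after the start site of transcription, from base 10 (Ndufaf8) to base 38 (Ndufb8). Those of Atp5f1 and Atp5j began before it, at -3 and -88. AAGATGGC holds ATG, the letters of a start codon, and whether these matches are start codons was not tested. The comparison was with all genes, whether or not expressed in these cells. A match is a description of the sequence and not of binding. The 30-base windows of 4 members with the NRF1 letters are shown in capitals, read along each gene's strand.

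Cox6a1, chr5:115349100-115349129: aggaacggggcGCATGCGCgctctcgctcc
Atp5k, chr5:108434429-108434458: ttcactgcggcGCATGCGCctttctggctt
Sdhb, chr4:140961206-140961235: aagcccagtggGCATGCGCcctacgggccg
Uqcr11, chr10:80406807-80406836: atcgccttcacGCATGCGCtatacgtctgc

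These 4 genes, from complex IV, ATP synthase, complex II and complex III, had log2 fold changes of -0.20, -0.37, -0.20 and -0.03. Of all 12 members with the NRF1 letters 9 had a negative and 3 a positive value, between -0.37 (Atp5k) and 0.23 (Atp5g2), with a median of -0.17, and 0 passed the test. Over all 90 protein-coding members 69 had a negative value and the median was -0.12, so the members with these letters were not set apart by sign. Cox6a2, Cox4i2 and Uqcrb had no promoter entry.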

How the data were processed

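Ribosome-bound polyA+ RNA of Purkinje cells was sequenced from 7 mice (Kapa Stranded mRNA-Seq). The authors deduplicated and trimmed reads with fastp, aligned them to mm10 and deposited raw counts per gene from featureCounts 2.0.1 (paired, both ends mapped, reverse-stranded, GENCODE M25). The file headers point to a folder named Bowtie2 for first-series alignments and to one named STAR for second-series alignments, where the methods name Bowtie2 alone. The methods state 3 libraries per genotype, the labels 4 mutant libraries.

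Symbols came from an annotation of the same build (M21), which named 55141 of 55401 identifiers, so that genes renamed since may be missed. The share of counts in processed pseudogenes was 8.73 to 10.1% for first-series and 0.135 to 0.189% for second-series libraries. Copies were matched with BLASTN 2.17.0 to the best coding transcript.

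Counts were compared with edgeR 4.0.16 (quasi-likelihood, TMM, filterByExpr by genotype, limma 3.58.1, R 4.3.3), with the series as a term and Benjamini-Hochberg adjustment over all genes tested. An adjusted p under 0.05 was called. Each SE was back-calculated from the fold change and the p of its test. Alternatives were RLE size factors, library totals, DESeq2 1.42.0, no filter, no pseudogenes or mitochondrial genes, the replicate block, no series term, sex, each series alone and each library left out. Adding copies and the pericyte list were chosen after seeing the data. The members, lists and tests were chosen with earlier results of these data known. Named were members called, the extremes and highest level per kilobase of each complex, the paralogs, called genes of the other lists and Rreb1, except for 1 member that is not reported here by name and is not drawn. The 4 annotated pseudogenes were set apart from their complexes, which the planned groups did not do. In simulated counts for the comparison of all libraries (17418 genes) the test called 16 of 50 at a 1.5-fold change, 39 of 50 at 2-fold and 47 of 50 at 4-fold.

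Replicate numbers were checked for pairing: the deviations of same-numbered libraries from their group means correlated at 0.914, 0.946 and 0.96, which is over the fixed limit of 0.1. Number 3 falls wholly in the second series, and within the first series the correlation was 0.0352.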

Additional observations from a re-analysis of the deposited data

Results flagged for a closer look

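In the mutant libraries Cox4i2 was lowest in mutant 2, at 1.19 CPM, farther from the other mutants than the spread among those (2.21 to 2.41 CPM) by Dixon's criterion for 4 values. Chance marks about 1 in 20 groups this way, and 37 members were looked at.

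Reads in copies lie outside the gene counts. Their share was above that of wild type 3 in both second-series mutants for 29 of 49 members and below it in both for 3. Over whole libraries the share of counts in processed pseudogenes was also higher in mutants 3 and 4, at 0.177 and 0.189%, against 0.135% in wild type 3. The same split over all genes with copies was not counted. For 2 members the share was above that of wild type 3 by more than 5 percentage points, and for 1 it was below by more than 5. Ndufs5 had 31.3 and 29.5% of its reads in its copy in mutants 3 and 4, against 1.01% in wild type 3. Cox7a2l had 15.3 and 13.4% in mutants 3 and 4, against 0.298% in wild type 3. In the first series the shares of Ndufs5 were 76.7 and 78.3% in mutants 1 and 2, against 79.0 and 87.4% in wild types 1 and 2.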

How the results depend on the processing

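Of 18 alternatives, Cox6a2 kept its call in 16 (log2 fold change 1.68 to 2.85), Cox4i2 in 9 (-1.39 to -0.94) and Uqcrb in 7. For Cox6a2, a member only through its counts in mutants, this count is a description only. Of the values of 37 named members under these alternatives, 57 of 657 had the other sign. In place of the count of 2 members higher, 1 was higher with the replicate block, with no series term, in the first series alone and with pseudogene copies, and 0 with sex in place of the series and in the second series alone. Sex cannot be told apart from the series for all but 1 library, and there Uqcrb was at -0.37 (adjusted p 0.948). In place of the count of 1 member lower, 0 were lower on library totals alone, with no series term, with sex and in the first series alone, and 2 with DESeq2 and in the second series alone. In the second series 1 in place of 2 was lower with copies added. Without the filter on low counts 1 member in place of 0 differed in its genotype effect between the series. Leaving out each library in turn gave 1 to 2 members higher and 0 to 1 lower. The replicate block changed no other call among the named members. On library totals without TMM the median over all genes was 0.12 and that of the protein-coding members -0.02, and the members' median was 0.03 with no series term and -0.58 with sex. The limits of depth were greatest for Cox6a2 and Ndufa4l2, with as few as 2 counts in a library. In simulated counts 16 of 50 changes of 1.5-fold were called, so changes of that size could be missed.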
